A study of Mus musculus with 48 samples.

Results

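Myelin is the membrane that oligodendrocytes wrap around axons, and 6 genes for its proteins are described here in every mouse of a spaceflight experiment. They were taken by name, by a rule that uses no measured value, as the listed myelin genes with a row in the deposited expression tables: Mbp, Mobp, Mog, Mag, Cnp and Cldn11. They are 6 of the 15782 genes of those tables. The list was nevertheless drawn up with earlier results of these data known, and the study had already named Mobp from these samples. Counts of called members are therefore descriptions and no independent evidence.

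The proteins sit in different parts of the sheath. Mbp (myelin basic protein) and Mobp (myelin-associated oligodendrocyte basic protein) are small positively charged proteins on the cytoplasmic face of compact myelin, where they hold the membrane layers together. Cnp encodes an enzyme of the cytoplasmic channels of the sheath, and Cldn11 encodes the claudin of the tight junctions between its layers. Mag (myelin-associated glycoprotein) lies on the innermost layer and contacts the axon, and Mog (myelin oligodendrocyte glycoprotein) lies on the outermost surface. All 6 are genes of mature oligodendrocytes, and the messenger RNAs of Mbp and Mobp are also carried out into the sheath, so that their signal is not limited to cell bodies.

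Male C57BL/6 mice, 10 weeks old at launch, spent 35 days in orbit (FLT) or in matching habitat on the ground (GC). Mice of 2 groups received BuOE, a manganese porphyrin that mimics superoxide dismutase, subcutaneously at 1 mg/kg in 0.2 mL before launch and weekly thereafter, and the others received saline (SAL), so that the 4 groups GC-SAL, FLT-SAL, GC-BuOE and FLT-BuOE held 3 mice each. GeoMx digital spatial profiling was used, in which tagged probes are cut from a chosen area of illumination (AOI) on a section of the fixed left hemibrain and counted, and every mouse gave 1 AOI in Cornu Ammonis 1 (CA), dentate gyrus (DG), frontal cortex (FCT) and cortex (CT). The comparisons ask how spaceflight changes expression and whether BuOE alters that change. All 3 mice of a group shared a slide, so slide and group cannot be told apart, and the flight mice were collected only after return to Earth.

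Total counts were between 322629 and 1579380 per AOI (median 652040), and AOIs held 140 to 640 nuclei (median 455.5). Values are Q3 normalized signals, in which the upper quartile of the genes is 40.02 in every one of the 48 AOIs, so that regions were compared on a shared scale. This scaling does not equalize background. The negative-probe signal was 16.14 to 20.95 in CA, 9.24 to 13.48 in DG, 12.05 to 17.99 in FCT and 13.33 to 16.83 in CT. The region labels were checked with marker genes. Prox1, a granule cell gene, was between 88.4 and 149 in DG and at most 41.5 in any other AOI, and Fibcd1, a CA1 gene, was between 55.4 and 112 in CA and at most 42.2 elsewhere. Each gene has 1 probe, so levels of different genes are not compared.

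The members lie on different chromosomes. In GRCm38 coordinates of the GENCODE annotation, Mobp spans chr9:120149707-120181484, Cnp chr11:100574904-100591729, Cldn11 chr3:31149920-31164324 (all on the plus strand), Mag chr7:30899176-30914873 and Mog chr17:37010743-37023398 (both on the minus strand). Because the genes moved together in some comparisons, the 250 bases before the RefSeq start of 5 of them (GRCm38.p6) were searched on both strands for 5 motifs, among them ACAAAG, a core of SOX and TCF factors, and CTGGCAC, that of MYRF, both regulators of myelination. The others were AACAAT as a further SOX form, CAGCTG as an E-box and TATAAA as a TATA box. The letters were chosen after the windows had been read. The upstream stretches of the 3 genes with a match of ACAAAG or CTGGCAC, with the matches in capitals, are (the 200 bases farthest from the start for Mobp and Cnp, all 250 for Mag)

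Mobp, chr9:120149492-120149691, plus strand: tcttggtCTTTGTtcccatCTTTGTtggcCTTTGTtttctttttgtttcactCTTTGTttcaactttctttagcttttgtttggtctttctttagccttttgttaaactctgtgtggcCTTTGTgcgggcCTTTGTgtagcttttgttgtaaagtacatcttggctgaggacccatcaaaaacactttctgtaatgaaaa
Cnp, chr11:100574689-100574888, plus strand: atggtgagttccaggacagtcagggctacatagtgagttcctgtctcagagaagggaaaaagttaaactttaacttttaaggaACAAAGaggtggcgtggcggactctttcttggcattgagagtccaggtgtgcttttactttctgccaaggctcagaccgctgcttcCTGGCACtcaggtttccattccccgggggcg
Mag, chr7:30914923-30915172, minus strand: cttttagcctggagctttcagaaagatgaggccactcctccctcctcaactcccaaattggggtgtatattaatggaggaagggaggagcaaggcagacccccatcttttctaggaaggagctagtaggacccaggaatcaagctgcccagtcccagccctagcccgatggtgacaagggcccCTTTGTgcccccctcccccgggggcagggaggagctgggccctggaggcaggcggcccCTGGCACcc

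The Mobp window held 6 matches of ACAAAG, all read as CTTTGT on this strand, and Cnp and the outermost start of Mag held 1 each. Of 32851 windows of the same length, 16.5% had at least 1 such match and 1 window, that of Mobp itself, had 6. CTGGCAC was found once in Cnp and once in Mag, and in 4.19% of all windows. The windows of Mog and Cldn11 held none of the 5 motifs, of which AACAAT was in 9.42%, CAGCTG in 13.0% and TATAAA in 12.4% of all windows. These matches describe letters and do not show that a factor binds there. Since the letters were chosen with the windows known, the rarity of a match is no evidence either.

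The first comparison asks where in the brain the 6 genes were measured at a high level. The medians of all 6 were higher in both cortical regions than in both hippocampal ones. Over the 12 mice Mobp was between 111 and 204 in CA (median 151), between 106 and 200 in DG (median 131), between 148 and 749 in FCT (median 306) and between 190 and 653 in CT (median 254). Mbp had medians of 82.0 and 84.1 in CA and DG and of 151 and 153 in FCT and CT. For Mbp every FCT value, from 118, was above every hippocampal value, while the CT values, from 106, overlapped those of DG, which reached 111, and not those of CA, which reached 101.

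For the other members the ranges of cortex and hippocampus overlapped. Cnp had medians of 51.2 and 44.1 in CA and DG and of 93.6 and 77.2 in FCT and CT. Cldn11 had medians of 34.0, 29.3, 51.7 and 43.8 in the same order. Mog went from medians of 35.1 and 28.8 to 46.6 and 45.1, and Mag from 21.5 and 21.6 to 29.5 and 30.6. Background limits the reading of these low signals. Divided by the negative-probe signal of the same AOI, Mag had medians of 1.09, 1.99, 2.14 and 1.97 in CA, DG, FCT and CT. By that ratio Mag was not higher in CT than in DG. Mog (1.91 and 2.51) and Cldn11 (1.78 and 2.53) were then lower in CA than in DG.

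In a limma fit over all 48 AOIs with the mouse as a random block, 17 of the 36 pairs of a member and 2 regions were called, at a Benjamini-Hochberg adjusted p below 0.05 and a change beyond 1.5-fold. Between FCT and DG 5 of 6 members were higher in FCT (2.69% of all genes were called in that direction), led by Mobp with a log2 difference of 1.19 (SE 0.083, adjusted p = 6.0e-24). Between CT and DG the same number was higher in CT (3.6% of all genes), with Mobp at 1.08 (SE 0.083, adjusted p = 2.1e-21). FCT against CA gave 4 (2.1% of all genes) and CT against CA gave 3 (2.93% of all genes). Mag did not pass in any pair, and its log2 differences between cortex and hippocampus were 0.41 to 0.43, below the fold threshold, with adjusted p between 0.0070 and 0.013. No member differed by the call rule between CT and FCT, where the log2 differences ran from -0.24 to 0.01, or between DG and CA, where they ran from -0.23 to 0.09 (limma, which called 0.101% and 4.1% of all genes). In these pairs 1 of 6 and 3 of 6 members had an unadjusted p below 0.05. The share of all genes below that value is not given, so these counts have nothing to be set against.

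**Figure D1:**
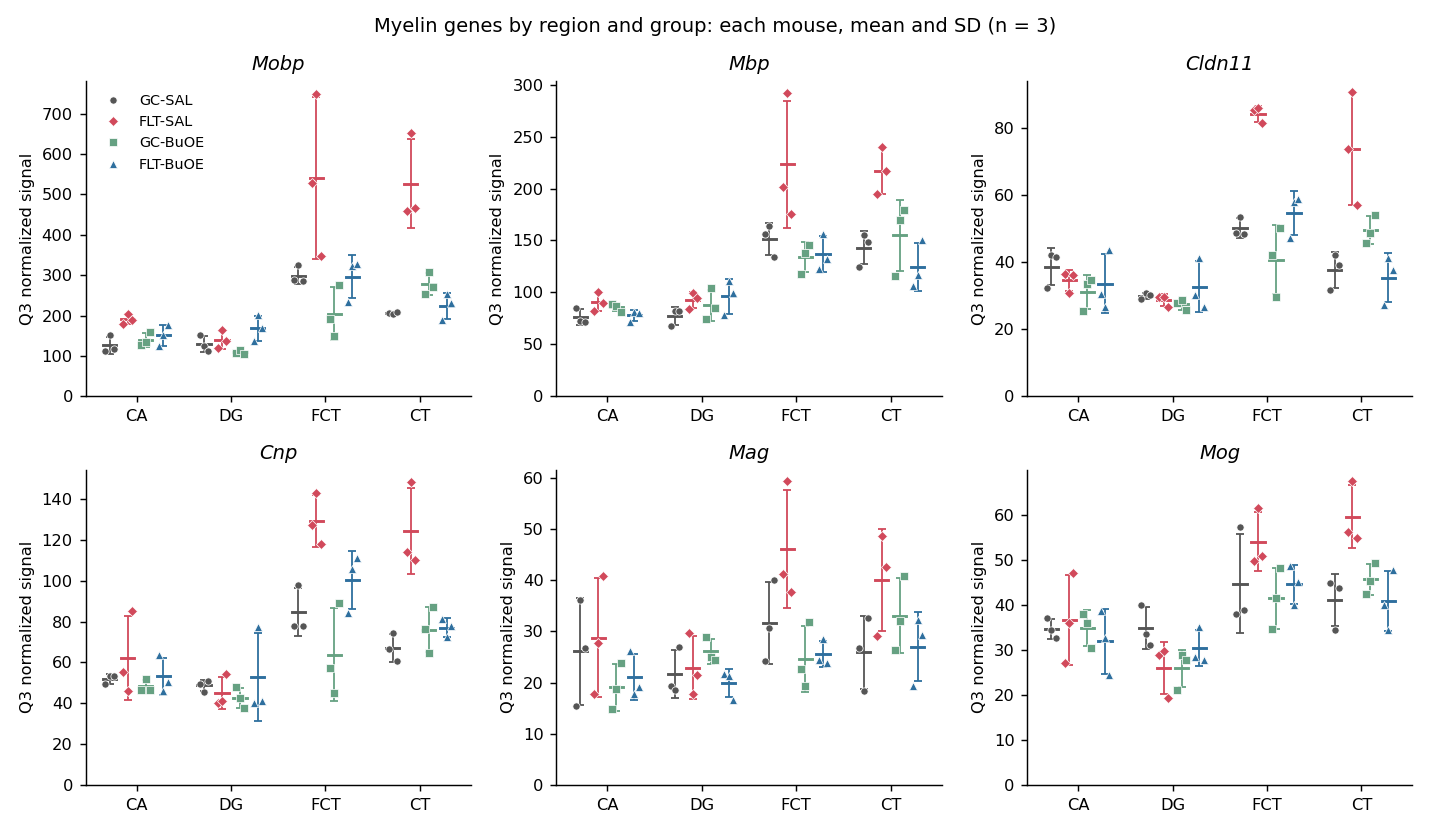
Q3 normalized signal (y axis, from 0) of the 6 myelin genes in CA, DG, FCT and CT (x axis), with 1 point a mouse, the mean as a short line and the SD as a bar, for n = 3 mice in each of 4 groups. Levels are higher in FCT and CT than in CA and DG, and the FLT-SAL mice (diamonds) stand above the other 9 mice for 4 genes in FCT and 5 in CT.

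Flight in saline mice was compared with the ground first in CT, where the largest differences of the 6 genes lay. Mobp was 207, 203 and 208 in the 3 GC-SAL mice and 459, 653 and 466 in the 3 FLT-SAL mice. The ground mice were close to each other, and every flight mouse was above all of them. Mobp rose 2.51-fold, a log2 difference of 1.33 (SE 0.16, 95% CI 1.01 to 1.65, adjusted p = 2.8e-07), the 2nd largest rise of all 15782 genes in this region.

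Cldn11, the tight junction claudin, was 31.5, 41.9 and 39.1 in GC-SAL and 73.5, 90.6 and 57.0 in FLT-SAL. It rose 1.92-fold, by 0.94 on the log2 scale (SE 0.19, adjusted p = 0.0065). Cnp was 66.7, 74.3 and 60.5 in GC-SAL and 114, 149 and 110 in FLT-SAL and rose 1.83-fold, by 0.87 (SE 0.16, adjusted p = 0.0027). For both genes every flight mouse was above every ground mouse, which held for 5.14% of all genes.

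The other 3 members were not called in CT. Mbp was 125, 155 and 149 in GC-SAL against 195, 240 and 217 in FLT-SAL, a log2 difference of 0.60 (SE 0.16, adjusted p = 0.22). Mog was 44.9, 34.3 and 43.8 against 56.0, 67.5 and 54.9, a difference of 0.53 (SE 0.18, adjusted p = 0.56). The groups did not overlap for these genes either. Mag was 26.7, 18.4 and 32.6 against 29.1, 48.5 and 42.6, with overlapping groups and a difference of 0.62 (SE 0.22, adjusted p = 0.73).

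In CT 3 of 6 members were called higher beside 0.0634% of all genes in that direction (10 genes) and 0.0887% in either direction, and all 6 had an unadjusted p below 0.05, as did 5.27% of all genes. The median log2 difference of the 6 was 0.74, and that of all genes 0.01. Every FLT-SAL mouse was above all 9 other mice for 5 members (all but Mag), which held for 0.691% of all genes. edgeR and DESeq2, applied to the whole counts behind the signals, called the same 3 members in CT. Shares of all genes called are given for the main limma fits alone, here and below. Member calls by edgeR, DESeq2 or another scaling therefore have no such share beside them. FLT-SAL mouse 2 was highest for each of the 6 genes in this region, and without it Mobp alone was called (1.16 on the log2 scale, adjusted p = 2.0e-04). Cldn11 also lost its call without GC-SAL mouse 1 (0.82, adjusted p = 0.16) or FLT-SAL mouse 1 (0.93, adjusted p = 0.063).

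Over the 4 regions the 24 pairs of a member and a region gave these 3 calls, beside 0.136% of all such pairs of genes, and 12 had an unadjusted p below 0.05, beside 6.27%.

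In FCT no member was called in the same comparison. Mobp was 289, 324 and 285 in GC-SAL and 528, 749 and 348 in FLT-SAL, a log2 difference of 0.79 (SE 0.19, 95% CI 0.41 to 1.17, adjusted p = 0.11). Cldn11 was 48.5, 53.4 and 48.3 against 85.2, 85.8 and 81.4, a difference of 0.74 (SE 0.18, adjusted p = 0.11). The groups did not overlap for either gene, as for 7.41% of all genes upward, and the 3 flight values of Cldn11 were close to each other.

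Cnp was 77.9, 98.1 and 77.7 in GC-SAL and 128, 143 and 118 in FLT-SAL (log2 difference 0.61, SE 0.18, adjusted p = 0.36). Mbp was 156, 164 and 134 against 202, 292 and 175 (0.53, SE 0.16, adjusted p = 0.40). These groups did not overlap, whereas those of Mag (24.2, 30.6 and 40.02 against 41.2, 59.3 and 37.8) and Mog (37.9, 57.3 and 38.9 against 49.7, 61.5 and 50.8) did.

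All 6 members had a positive difference in FCT, with a median of 0.57 against 0.03 for all genes, and 5 of 6 had an unadjusted p below 0.05 (5.66% of all genes). The call rule was passed by 0.0507% of all genes, 0.0317% upward. edgeR called 2 members, Mobp (0.82, adjusted p = 0.025) and Cldn11 (0.71, adjusted p = 0.047), and DESeq2 0. For 4 members, Mbp, Mobp, Cnp and Cldn11, every FLT-SAL mouse was above all 9 others (0.741% of all genes). FLT-SAL mouse 3 was the lowest of the flight mice for Mobp in this region, and without it the difference of Mobp was 1.07 (adjusted p = 0.0022), whereas without mouse 2 it was 0.52 (adjusted p = 1.00).

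In the hippocampus the members did not move as a group. In CA, Mobp was 111, 151 and 117 in GC-SAL and 180, 204 and 188 in FLT-SAL, without overlap, as for 7.55% of all genes upward (log2 difference 0.60, SE 0.16, adjusted p = 0.089). edgeR and DESeq2 called it (adjusted p = 0.048 and 0.024), whereas limma, which called 0.139% of all genes and 0.127% upward, did not. It was the 1 member of 6 with an unadjusted p below 0.05 (6.73% of all genes) and the 1 whose FLT-SAL mice were above all 9 others (1.03% of all genes). The other 5 members differed by -0.15 to 0.26 in CA, and the groups of each overlapped. In DG the 6 differences ran from -0.43 for Mog to 0.26 for Mbp, with a median of 0.00. Mog was 40.02, 33.5 and 31.0 in GC-SAL and 28.9, 29.6 and 19.3 in FLT-SAL, so that its flight mice were all below the ground mice, and those of Mbp (83.8, 99.3 and 95.1) were all above (67.6, 81.9 and 82.0). Such separation held for 7.45% of all genes downward and 7.39% upward. limma, edgeR and DESeq2 called 0 of 6 in DG, where 0 of 6 had an unadjusted p below 0.05 (7.41% of all genes) and limma called 0.266% of all genes, 0.247% upward.

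Averaged over the 4 AOIs of a mouse, Mobp was the member called, at 0.71 (SE 0.087, adjusted p = 3.7e-09), where 0.095% of all genes were called. The 4 AOIs of a mouse entered this fit as nearly independent (estimated correlation 0.026), so its p-values do not rest on mice alone. Mbp (0.41, adjusted p = 7.7e-04), Cnp (0.39, adjusted p = 0.013) and Cldn11 (0.37, adjusted p = 0.034) had adjusted p below 0.05 and stayed under the fold threshold. The difference itself was compared among regions with an F test over the region-by-flight terms of the saline mice. Mobp passed it (F = 9.37, adjusted p = 0.042), as did 0.0444% of all genes, and Cldn11 had F = 8.11 (adjusted p = 0.090). For Mbp the test gave F = 1.29 (adjusted p = 1.00). This call of Mobp was lost in 8 of the alternatives, among them TMM scaling and both covariates, and when any 1 of 7 of the 12 mice was left out.

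**Figure D2:**
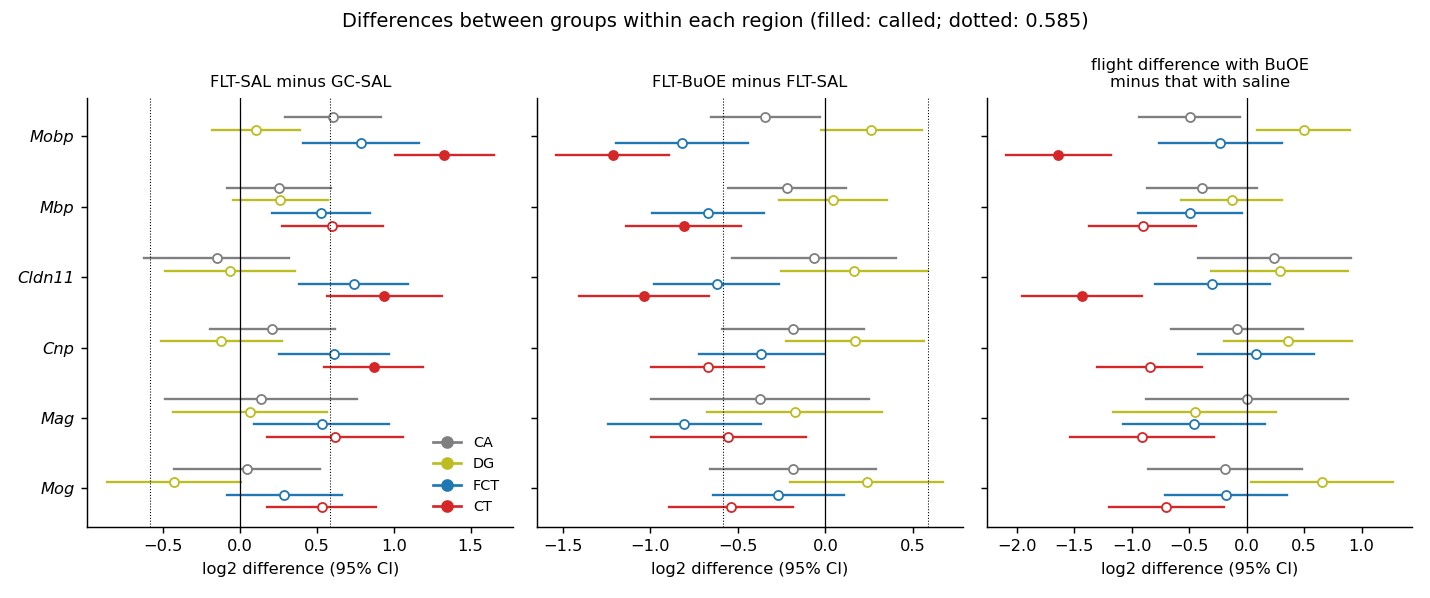
Log2 difference with its 95% confidence interval (x axis) for the 6 myelin genes (y axis) in CA, DG, FCT and CT, from the limma fit of 12 mice in each region. Filled points passed the call rule, and dotted lines mark a 1.5-fold change; called points lie in CT alone, upward for FLT-SAL minus GC-SAL and downward for FLT-BuOE minus FLT-SAL and for the interaction.

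BuOE in flight was then compared with saline in flight. Both comparisons use the same FLT-SAL mice, so opposite signs in them are not separate evidence, and values are given side by side. In CT, Mobp was 190, 253 and 231 in FLT-BuOE, all below the FLT-SAL mice and on both sides of the GC-SAL mice. It fell 2.32-fold from FLT-SAL, a log2 difference of -1.21 (SE 0.16, 95% CI -1.54 to -0.89, adjusted p = 1.1e-05).

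Cldn11 was 27.1, 41.1 and 37.7 in FLT-BuOE in CT, and it fell 2.05-fold (log2 difference -1.04, SE 0.19, adjusted p = 0.0022). Mbp was 106, 117 and 151 and fell 1.75-fold (-0.81, SE 0.16, adjusted p = 0.016). Every FLT-BuOE mouse was below every FLT-SAL mouse for Mobp, Cldn11, Mbp, Mog and Cnp, as was the case for 5.99% of all genes. Cnp was 81.3, 72.3 and 77.7 (-0.67, SE 0.16, adjusted p = 0.089), Mog 40.02, 34.5 and 47.7 (-0.54, adjusted p = 0.47) and Mag 19.4, 32.2 and 29.3 (-0.56, adjusted p = 0.71), and these 3 were not called.

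The 3 members called lower in CT stand beside 0.0697% of all genes called in either direction, 11 genes, and all 6 had an unadjusted p below 0.05 (5.73% of all genes). Over the 4 regions these were 3 of 24 pairs, beside 0.0269% of all pairs, and 12 of 24 had an unadjusted p below 0.05, beside 6.14%. The median of the 6 was -0.74, against -0.02 for all genes. edgeR and DESeq2 called the same 3. Leaving out FLT-SAL mouse 2 or FLT-BuOE mouse 1 left Mobp alone. Mbp also lost its call without FLT-SAL mouse 3 (adjusted p = 0.078) or FLT-BuOE mouse 2 (adjusted p = 0.12). All 3 calls were lost with counts per nucleus (adjusted p = 0.71 for each). They were also lost with counts per area (0.94 for Mbp, 0.69 for Mobp and Cldn11) and with the AOI area as a covariate. For Mbp, Mobp and Cldn11 the log2 differences were -1.219, -1.635 and -1.375 per nucleus (median of all genes -0.397). Per area they were -0.945, -1.377 and -0.983 (median -0.155), beside -0.809, -1.215 and -1.036 in the main fit. Both scalings thus kept a negative difference for each gene, and why the calls were lost was not tested.

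FCT showed negative differences of all 6 members between FLT-BuOE and FLT-SAL with no call (0.0317% of all genes were called), and 5 of 6 had an unadjusted p below 0.05 (7.65% of all genes). Mobp was 234, 324 and 329 in FLT-BuOE (-0.82, SE 0.19, adjusted p = 0.071) and Mbp 123, 157 and 133 (-0.67, SE 0.16, adjusted p = 0.095). Mag was 24.3, 28.5 and 23.8 (-0.81, SE 0.22, adjusted p = 0.17) and Cldn11 47.2, 57.8 and 58.8 (-0.62, SE 0.18, adjusted p = 0.22). All 6 members had each FLT-BuOE mouse below each FLT-SAL mouse in FCT, which held for 8.82% of all genes. edgeR called 1, Mobp (-0.81, adjusted p = 0.035), and DESeq2 0. In CA and DG the differences ran from -0.37 to -0.07 and from -0.18 to 0.26, with no call by limma, edgeR or DESeq2 (1 of 6 and 0 of 6 with an unadjusted p below 0.05, beside 4.96% and 6.2% of all genes; limma called 0.00634% in CA and 0% in DG). Averaged over the 4 AOIs of a mouse, Mobp (-0.53, adjusted p = 6.7e-05) and Mbp (-0.41, adjusted p = 0.0020) had adjusted p below 0.05 and did not pass the fold threshold, which 0.0317% of all genes passed.

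BuOE on the ground was not called for any member in any region by limma, edgeR or DESeq2. In CT, GC-BuOE mice had 254, 308 and 271 for Mobp, all above the GC-SAL mice and below the FLT-SAL mice (log2 difference from GC-SAL 0.42, SE 0.16, adjusted p = 1.00), and Cldn11 was 45.7, 48.7 and 53.9 (0.40, SE 0.19, adjusted p = 1.00). Every GC-BuOE mouse was above every GC-SAL mouse there for 3.92% of all genes. In FCT the difference of Mobp had the other sign, with GC-BuOE mice at 190, 148 and 276, all below the GC-SAL mice, as for 4.86% of all genes (-0.59, SE 0.19, adjusted p = 0.74). An unadjusted p below 0.05 was found for 2 of 6 members in CT, 2 of 6 in FCT and 0 of 6 in CA and DG, beside 3.78%, 5.63%, 5.6% and 5.21% of all genes. Over all pairs these were 4 of 24, beside 5.05%, and the call rule was passed by 0.00158% of all pairs, 1 gene in FCT (0.00634% of the genes there).

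Flight under BuOE was likewise not called for a member by limma. In DG, Mobp was 108, 115 and 106 in GC-BuOE and 137, 200 and 168 in FLT-BuOE, without overlap, as for 5.16% of all genes upward (0.60, SE 0.14, adjusted p = 0.058), and edgeR and DESeq2 called it (adjusted p = 0.037 and 0.020). In FCT Cnp was 57.3, 45.2 and 89.1 against 84.3, 106 and 111, which overlapped (0.69, SE 0.18, adjusted p = 0.27). In CT 5 of 6 differences were negative, with Cldn11 at -0.49 (SE 0.19, adjusted p = 0.61). An unadjusted p below 0.05 was found for 0, 1, 3 and 1 of 6 members in CA, DG, FCT and CT, beside 7.52%, 8.24%, 7.17% and 6.65% of all genes. limma called 0.0444%, 0.108%, 0.019% and 0.0127% of all genes in the same regions.

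Whether flight differed between the saline and BuOE mice was tested by the interaction, which uses all 4 groups. In CT the flight difference under BuOE minus that in saline was -1.64 on the log2 scale for Mobp (SE 0.23, adjusted p = 3.9e-05). For Cldn11 it was -1.43 (SE 0.26, adjusted p = 0.0070). Under BuOE the flight differences of Mobp and Cldn11 were -0.31 and -0.49, opposite in sign to those in saline and not called. The differences of GC-BuOE from GC-SAL, 0.42 and 0.40, are also part of these values. Mobp and Cldn11 were 2 of the 3 genes called, 0.019% of all genes. Over the 4 regions these were 2 of 24 pairs, beside 0.00792% of all pairs, and 10 of 24 had an unadjusted p below 0.05, beside 5.51%. Both calls were lost with counts per nucleus or per area and with area as a covariate, and DESeq2 called 1 (Mobp) and edgeR 2. The sizes of the interaction under these alternatives are not given here. Mbp, Mog, Mag and Cnp had -0.90, -0.70, -0.91 and -0.84 without a call. No member passed in CA, DG or FCT, where the values lay between -0.49 and 0.66.

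The AOIs were not equal in size or cell number, and these values moved with the groups. In FCT each FLT-SAL AOI measured 198761 μm2 and held 568 to 602 nuclei, whereas the other groups measured 145393 to 173293 μm2 and held 400 to 524 nuclei. In CT the FLT-SAL AOIs measured 224546 μm2 with 549 to 598 nuclei, GC-BuOE 208860 μm2 with 470 to 570, FLT-BuOE 144580 μm2 with 416 to 448, and GC-SAL 146259 to 244534 μm2 with 140 to 578. Total counts in FCT were 991160 to 1579380 in FLT-SAL and at most 966414 in the other groups. In CT they were 988810 to 1440631 in FLT-SAL and overlapped those of GC-SAL and GC-BuOE, which reached 1124863 and 1075765.

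Within GC-SAL in CT the AOI of mouse 1 held 140 nuclei in 146259 μm2 and that of mouse 2 held 578 in 244534 μm2 (Mobp 207 and 203). With area as a covariate Mobp (1.34, adjusted p = 1.6e-05) and Cnp (0.84, adjusted p = 0.032) were still called for flight in CT and Cldn11 was not (0.82, adjusted p = 0.15), whereas for BuOE in flight Mobp had -1.24 (adjusted p = 0.14). With nuclei as a covariate Mobp alone was called for flight in CT, and Mobp and Cldn11 for BuOE in flight. Counts per 100 nuclei of Mobp in CT were 122, 55.2 and 44.8 in GC-SAL and 115, 218 and 153 in FLT-SAL, so that the groups overlapped through GC-SAL mouse 1. In FCT they were 58.0, 103 and 56.0 against 156, 185 and 129, without overlap.

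When counts were scaled to nuclei, the log2 differences of FLT-SAL from GC-SAL in CT were 1.21 for Mobp, 0.79 for Cldn11 and 0.74 for Cnp, with a median of all genes of -0.10 and adjusted p of 1.00 for all 3. Scaled to area they were 1.69, 1.08 and 1.13, with a median of 0.30 and adjusted p of 0.011, 0.069 and 0.19, so that Mobp alone was called. Both scalings gave calls in other regions, where the median of all genes had also moved. For flight Mobp was called in CA per nucleus (1.27, median of all genes 0.63), and per area Mbp, Mobp and Cnp in CA (0.88, 1.27 and 0.78, median 0.52) and Mbp and Mobp in DG (0.93 and 0.82, median 0.56). For BuOE in flight 5 members were called lower in FCT per nucleus, all but Mog (-1.47 for Mobp to -0.998 for Cnp, median of all genes -0.64), and per area 4 in FCT (median -0.45) and 4 in CA (median -0.41). In a bulk AOI fewer oligodendrocytes and less RNA per oligodendrocyte cannot be told apart.

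**Figure D3:**
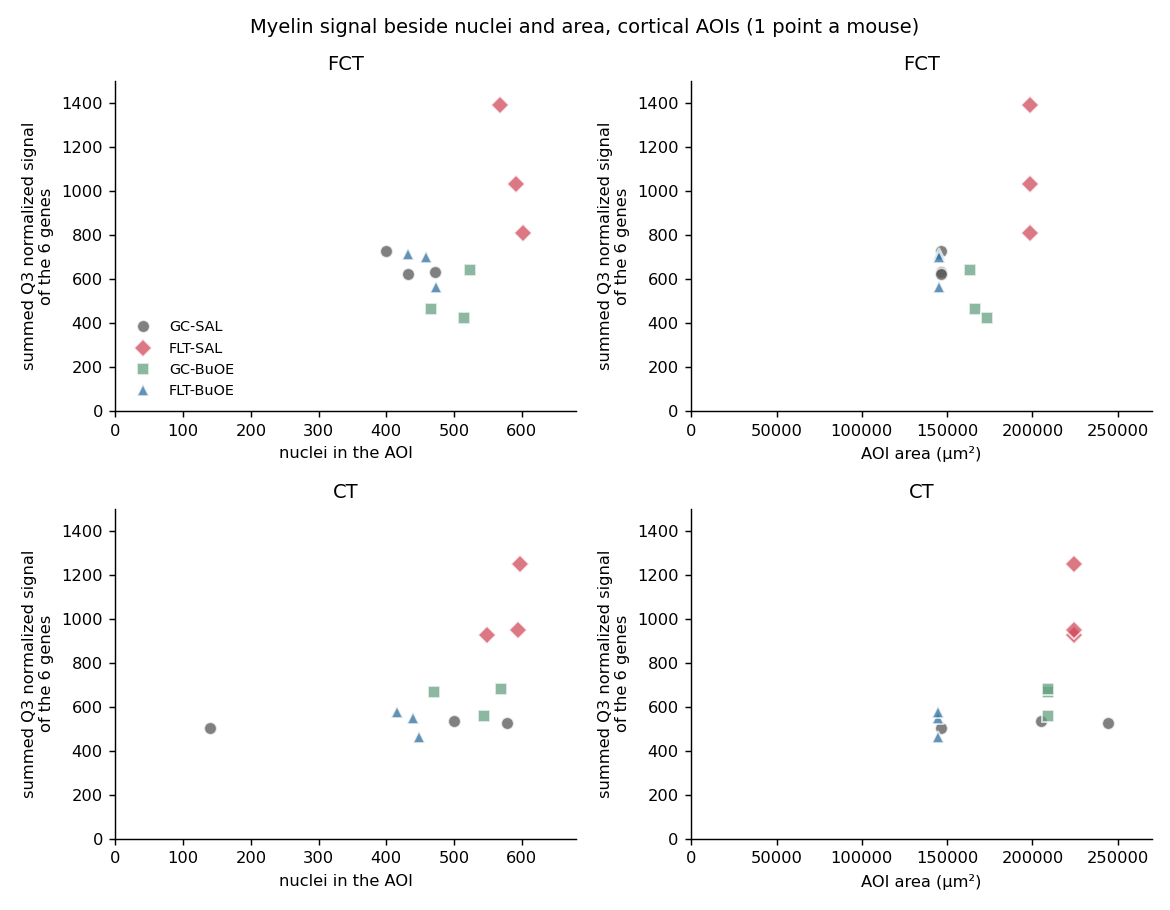
Summed Q3 normalized signal of the 6 myelin genes (y axis) against the nuclei in the AOI (left) and the AOI area in μm2 (right), for FCT (top) and CT (bottom), 1 point a mouse; overlapping points share an area. The FLT-SAL mice, at 811 to 1391 in FCT and 927 to 1248 in CT, lie above all others, and the GC-SAL mice in CT lie between 502 and 533 across 140 to 578 nuclei. Mobp makes up the largest part of the sum.

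Other genes of the oligodendrocyte lineage were read from lists of known markers. Of 12 further genes of compact myelin and the myelin membrane, 9 had a positive flight difference in CT (median 0.26) and 3 had an unadjusted p below 0.05. In FLT-BuOE against FLT-SAL 3 had a positive difference there (median -0.24) and 5 had an unadjusted p below 0.05. In FCT none of the 12 was called by limma, edgeR or DESeq2 in either comparison (2 and 3 with an unadjusted p below 0.05), with medians of 0.05 and -0.13.

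Of 30 other genes of mature oligodendrocytes, 24 had a positive flight difference in CT (median 0.25) and 2 rose: Ptgds, a prostaglandin D synthase (1.55, adjusted p = 1.7e-07), and Apod, a lipocalin that carries lipids (1.29, adjusted p = 3.8e-05). Both are genes that the study named from these samples, as it did Mobp, and Ptgds is also made by the meninges, so they are no independent evidence. In FLT-BuOE against FLT-SAL in CT 3 of the 30 fell, Apod (-0.96), Ptgds (-0.91) and the small heat shock protein gene Cryab (-0.81, adjusted p = 0.030), and 3 had a positive difference. In FCT 1 of the 30 was called, Ptgds, which rose in FLT-SAL (1.80, adjusted p = 6.9e-07).

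Genes of other stages and functions of the lineage were not called in the cortex by limma. Of 9 oligodendrocyte transcription factors, 6 had a positive flight difference in CT (median 0.20), with the factor St18 at 0.54 (adjusted p = 0.95) and Nkx6-2 at 0.50 (adjusted p = 0.86), and 2 had an unadjusted p below 0.05. All 9 were negative in FLT-BuOE against FLT-SAL in CT (median -0.32), with Olig2, which specifies the lineage, at -0.67 (adjusted p = 0.40) and Nkx6-2 at -0.63 (adjusted p = 0.50). Of 12 precursor genes 4 were positive in CT for flight (median -0.05, 1 with an unadjusted p below 0.05), with Bcas1 at -0.57 (adjusted p = 0.82) and Tnr at -0.37 (adjusted p = 1.00). Of 13 genes of myelin lipid synthesis 7 were positive (median 0.01, 1 with an unadjusted p below 0.05), with Sqle, an enzyme of cholesterol synthesis, at -0.35 (adjusted p = 1.00). Of 13 genes of axon-glia contact and the node of Ranvier 10 were positive (median 0.03, 3 with an unadjusted p below 0.05), with Omg at 0.60 (adjusted p = 0.27) and Rtn4, which encodes Nogo, at 0.46 (adjusted p = 0.65). edgeR and DESeq2 called no gene of these 4 lists in CT for flight or for BuOE in flight, and DESeq2 called 1 node gene in FCT for flight.

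**Figure D4:**
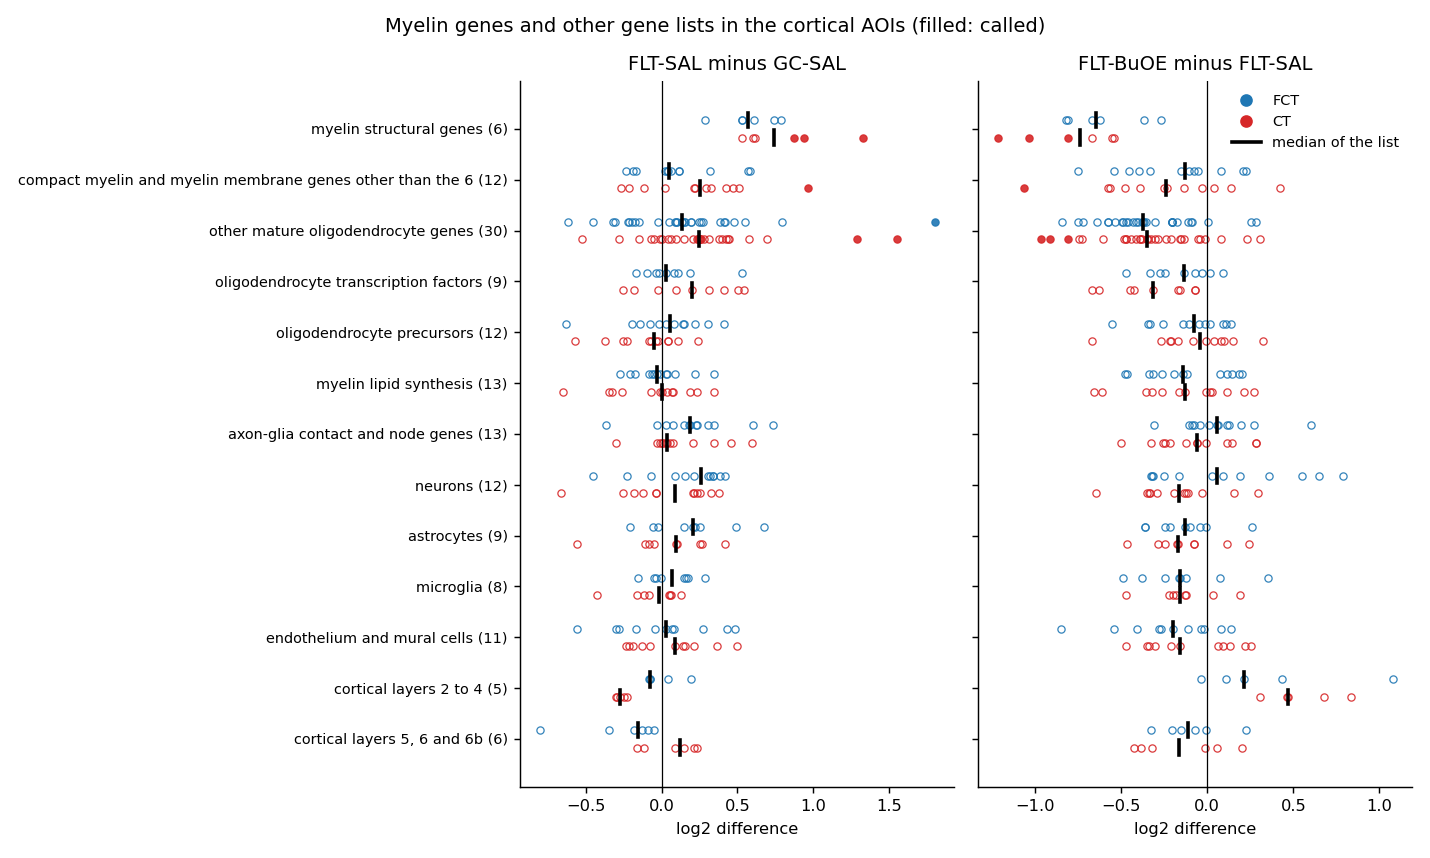
Log2 differences (x axis) of the single genes of 13 lists (y axis, number of genes in brackets) in FCT and CT, for FLT-SAL minus GC-SAL and FLT-BuOE minus FLT-SAL; filled points passed the call rule and black bars are the medians. The 6 myelin genes have medians of 0.57 and 0.74 for flight and -0.65 and -0.74 for BuOE in flight, while the lists of precursors, lipid synthesis, microglia and endothelium stay within 0.20 of 0. Signals of the precursor, microglia and endothelium lists were low, which limits the reading of their medians.

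Markers of other cells were read in the same AOIs. In CT the summed signals of 9 astrocyte genes were 824 to 1044 in GC-SAL and 925 to 1196 in FLT-SAL, those of 8 microglia genes 224 to 261.5 and 212 to 240, those of 12 neuron genes 1900 to 3264 and 2293 to 3056, and those of 11 vessel genes 287 to 338 and 300.7 to 343.5. All of these overlapped between the groups, whereas the 6 myelin genes summed to 502 to 533 and 927 to 1248. Mobp weighs most in that sum, with group means of 206 and 526 beside 521 and 1041 for the sum. limma called 0 genes of these 4 lists in CT for flight (2, 1, 2 and 1 with an unadjusted p below 0.05), and edgeR and DESeq2 called 0. Prx, a gene of the Schwann cells that make myelin outside the brain, had a median signal of 26.2 in CT, and its median ratio to the negative probes of the same AOI was 1.77. None of the defining markers was at 0. Median sums in GC-SAL in CT were 98.2 for 4 Schwann cell genes, 232.9 for 8 microglia genes, 324.8 for 11 vessel genes and 372.3 for 12 precursor genes. Signals per gene were thus similarly low, and small differences of these lists do not show that their cells were unchanged.

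In FCT the astrocyte genes summed to 712 to 758 in GC-SAL and 800 to 1093 in FLT-SAL, without overlap, as did the myelin genes there (624 to 728 and 811 to 1391). Of the 9, 6 had a positive flight difference (median 0.20, 2 with an unadjusted p below 0.05), with Glul, glutamine synthetase, at 0.68 (adjusted p = 0.13), and limma, edgeR and DESeq2 called 0. Between FLT-SAL and FLT-BuOE in FCT the 12 neuron genes summed to 1726 to 2135 and 2163 to 2591, without overlap and in the direction opposite to the myelin genes. Of the 12, 7 had a positive difference (median 0.06, 4 with an unadjusted p below 0.05), and limma, edgeR and DESeq2 called 0. The sums of the astrocyte, microglia and vessel genes overlapped between both groups in FCT and in CT, as did those of the neuron genes in CT. The part of the astrocyte and neuron markers in the myelin differences of FCT was not tested.

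Cortical layer markers moved in part with the groups. Of 5 genes of layers 2 to 4, 0 were positive in FLT-SAL against GC-SAL in CT (median -0.27, 0 with an unadjusted p below 0.05) and 5 in FLT-BuOE against FLT-SAL (median 0.47, 4 with an unadjusted p below 0.05), with Cux2 at 0.83 (adjusted p = 0.089) and Rasgrf2 at 0.68 (adjusted p = 0.41). limma called 0, DESeq2 0 and edgeR 1. Their summed signals in CT were 154 to 203 in GC-SAL, 126 to 178 in FLT-SAL and 159 to 261 in FLT-BuOE. Of 6 genes of layers 5, 6 and 6b, 4 and 2 were positive in the same comparisons, with medians of 0.12 and -0.17. Myelin is denser in deep layers, and the part of the layers in the myelin differences was not tested.

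The members varied together across AOIs. Over the 48 AOIs Pearson's r between pairs of members lay between 0.58 and 0.91 (median 0.78), with no p, since these AOIs share region, slide and mouse. After each value was centred on the mean of its region and group, r lay between -0.02 and 0.59 (median 0.32). The counts of Mog and Mag, at medians of 34 and 24, set a limit to this measure, since the variance among the 3 mice of a group was 1.08 times that of counting for Mog, 1.16 times for Cldn11 and 1.94 times for Mag, against 2.71 for Cnp, 3.63 for Mbp and 14.9 for Mobp (chi-square per degree of freedom over 32). The lowest count was 7 for Mag in CA (exact Poisson 95% interval 2.8 to 14.4, for counting error only), and the signal of Mag there had a median of 1.09 times that of the negative probes.

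Among the genes whose signal was most like the mean log2 signal of the 6 members over the 48 AOIs were Dbndd2 (r = 0.88), Septin4 (0.85), Tubb4a (0.84), Scd2 (0.84), Apod (0.83), Csrp1 (0.83), Reep5 (0.82), Glul (0.81) and Stmn1 (0.81). After centring on region and group they included Dbndd2 (0.66), Apod (0.64), Metrn (0.62), Kcna1 (0.62), Mtor (0.62), Haus1 (0.57), Rhot2 (0.56), Tmem189 (0.55) and Plec (0.55). Among all genes the members ranked 1, 2, 3, 4, 8 and 34 in the first measure, with Mag last, although each member is part of the mean it was set against.

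FLT-SAL mouse 2 had the highest Mobp signal of the 12 mice in CA, FCT and CT, and the summed signal of the 6 genes was highest in that mouse in FCT (1391) and CT (1248). The order of the mice differed between regions. FLT-BuOE mouse 2 was highest in DG, for 4 of the 6 genes, with a sum of 486.5 against 335 and 379 in the other mice of its group, and its sum ranked 9, 5 and 8 of 12 in CA, FCT and CT. In GC-BuOE, mice 1 and 2 had the lowest sums in FCT (465 and 422), against 640 in mouse 3.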

How the data were processed

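GeoMx whole transcriptome probes were counted in 48 AOIs. The authors trimmed, stitched, aligned and deduplicated reads with the GeoMx NGS Pipeline (version 2.3.4) and deposited raw counts of 20175 probes, and they deposited the Q3 normalized signal of 15782 genes, each AOI being scaled by its upper quartile. Their deposited fold changes and p-values were not used. Groups, AOI areas and nuclei come from the sample labels. Values were tested as log2(signal + 1) with limma 3.58.1 in R 4.3.3, in 1 fit per region of 12 AOIs (8 residual degrees of freedom, mean-variance trend) and in 1 fit of 48 AOIs with the mouse as a random block, with Benjamini-Hochberg adjustment over all genes. The call rule was a change beyond 1.5-fold with adjusted p below 0.05, without the fold threshold for the interaction and the F test. Fold changes are on the log2(signal + 1) scale and understate those of low genes.

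Whole counts were recovered for 99.98% of values (tolerance 0.02) and used with edgeR 4.0.16 and DESeq2 1.42.0. The members and gene lists were chosen with earlier results of these data known. Names follow a rule: all 6 members, and of each list up to 4 genes with the largest difference among those called or, where none was, the 2 largest, plus the 10 genes most like the members. Some genes that this rule selects are not reported here. Of lists of other cells, Prx, Glul and Cux2 are given with values as markers. The fits were tested on simulated data. Each mouse gave 1 AOI per region, so p-values measure the spread between mice of a slide. Depth is given as total counts per AOI, and intervals on counts cover counting error only.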

Additional observations from a re-analysis of the deposited data

Results flagged for a closer look

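Both members with a called interaction in CT are listed here because the flight difference differed between saline and BuOE mice by the test of that difference. For Mobp it was -1.64 on the log2 scale and for Cldn11 -1.43. Mobp kept its call when any single mouse was left out, and Cldn11 in 8 of the 12 such fits. FLT-SAL mice stood above both ground groups and FLT-BuOE for both genes, and the area of the AOI and the slide moved with the groups.

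The flight difference of Mobp also differed among the 4 regions by the F test (F = 9.37, adjusted p = 0.042), where its log2 differences were 1.33 (CT), 0.79 (FCT), 0.60 (CA) and 0.10 (DG). This call was not stable. It was lost under several alternatives, among them TMM scaling and both covariates, and when some single mice were left out.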

How the results depend on the processing

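The counts of called members were recomputed under other scalings, filters, covariates and tools. The share of all genes called under each alternative is not given, so a higher count may go with more calls among all genes. FLT-SAL against GC-SAL gave 3 of 24 pairs of member and region, 1 without the mean-variance trend, 1 with counts per nucleus (in CA), 6 with counts per area (1 in CT, 3 in CA, 2 in DG), 5 with only the 2 groups in the fit and 6 with edgeR (both with the same 3 in CT), and between 1 and 4 when a mouse was left out. The 3 calls of this comparison are all in CT, where 0 remained per nucleus. FLT-BuOE against FLT-SAL gave 3, also all in CT, 1 without the trend, 5 per nucleus (all in FCT, 0 in CT), 8 per area (4 in CA and 4 in FCT, 0 in CT), 0 with area as a covariate and 6 with the replicate block, and 1 to 4 without a mouse (1 without FLT-SAL mouse 2 or FLT-BuOE mouse 1). FLT-BuOE against GC-BuOE gave 0, and 1 with edgeR, with DESeq2 and with the replicate block (0 to 1 without a mouse), and GC-BuOE against GC-SAL gave 0 under every alternative (0 to 0 without a mouse). The interaction gave 2, 1 without the trend, with nuclei as a covariate and with DESeq2, 0 per nucleus, per area and with area as a covariate, and 1 to 2 without a mouse (1 without GC-SAL mouse 1, FLT-SAL mouse 2, GC-BuOE mouse 3 or FLT-BuOE mouse 1). Pairs of regions gave 17, and 11 per area (16 to 17 without a mouse). The flight difference averaged over regions gave 1, and 5 per area (0 to 1 without a mouse, 0 without FLT-SAL mouse 2), and that of BuOE in flight gave 0, 6 per nucleus and 5 per area (0 to 1). The F test among regions gave 1, 2 with the mouse as a fixed factor, 0 to 1 without a mouse (0 without any GC-SAL mouse, FLT-SAL mouse 1 or 2, GC-BuOE mouse 1 or FLT-BuOE mouse 2), and 0 with the background subtracted, without the trend, with TMM scaling, per nucleus, per area, with nuclei or area as a covariate and with no replicate block. The cause of these changes was not tested.

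No called difference of a member changed its sign. Of region pairs, Mobp in DG against CA turned to 0.65 with counts per area and Mag to 1.77 with the background subtracted. The median of all genes moved to 0.63, 0.38, 0.35 and -0.10 per nucleus and 0.52, 0.56, 0.27 and 0.30 per area in CA, DG, FCT and CT for flight. AOIs of the same replicate number were at most weakly alike: over 48 pairs of same-numbered AOIs r was -0.18 to 0.10 (median 0.02). Among the 3 mice of the other group, an AOI was most like that of its own number in 31 of 48 pairs. These pairs reuse AOIs, so this count was not set against a chance level. By the AOI coordinates of the sample labels the number followed the position of the section on every slide. The part of that position in the likeness was not tested. With the replicate block FLT-SAL against GC-SAL gave 4.

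In the cortex, area was equal in all AOIs of a group and region but for GC-SAL in CT and GC-BuOE in FCT, so the covariate rests on these mice. With 3 mice a group and median counts of 24 and 34 for Mag and Mog, the precision of these genes was limited.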
